A study of Mus musculus with 9 samples.

Results

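The 8 genes described here encode proteins of the red cell membrane. They are *Slc4a1* (band 3), *Sptb*, *Ank1*, *Epb41*, *Epb42*, *Ermap*, *Rhd*, and *Rhag*, which were taken by symbol from the 31053 genes of the table, and all 8 were found. They were measured by single cell RNA sequencing of bone marrow from 9 female mice at 9 to 10 weeks of age. The study chose this age as one before overt autoimmunity appears. Each mouse gave 1 library, and there were 3 mice each of the inbred New Zealand strains NZB (black) and NZW (white) and of their F1 cross (NZBWF1), which develops a lupus-like disease. After quality filters and removal of doublets 37593 cells remained, of which 1997 were erythroid-like. The questions were in which cells and at which erythroid stage these genes were expressed, and whether their levels differed between the parents and in the cross.

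The red cell membrane is a lipid bilayer held to a network of spectrin and actin by anchoring complexes. Band 3, the chloride and bicarbonate exchanger, binds the network through ankyrin and protein 4.2, the Rh proteins sit in the same complex, and protein 4.1 joins spectrin to actin at another anchor. Erythroblasts build this membrane as they fill with hemoglobin, inherited loss of its parts causes spherocytosis or elliptocytosis, and NZB mice are known for an autoimmune hemolytic anemia in which antibodies against band 3 occur.

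The genes lie on 6 chromosomes of the mouse build mm10 (GRCm38), with positions from GENCODE vM21. *Slc4a1* spans chr11:102348824-102366203, *Sptb* chr12:76580488-76710547, *Ank1* chr8:22974844-23150497, *Epb42* chr2:121017891-121037072, and *Rhag* chr17:40811126-40840754. *Epb41* (chr4:131923413-132075321), *Ermap* (chr4:119175457-119190011), and *Rhd* (chr4:134864536-134896172) lie on the same chromosome. No counted gene overlapped a member on its own strand.

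Upstream sequence of 6 of the 8 genes, all but *Slc4a1* and *Ank1*, was found in the RefSeq promoter table (build GRCm38.p6). The 250 bases before the RefSeq start are printed for *Rhd*, because the strain difference turned on it, and for *Rhag* and *Ermap*, because their levels followed each other and *Rhd* over cell classes. Capitals mark AGATAA or TGATAA, read on either strand, the letters that the erythroid factor GATA1 is known to bind. The windows are chr4:134864286-134864535 on the plus strand for *Rhd*, chr17:40810899-40811148 on the plus strand for *Rhag*, and chr4:119189996-119190245 on the minus strand for *Ermap*, each written in the direction of the gene.
Rhd: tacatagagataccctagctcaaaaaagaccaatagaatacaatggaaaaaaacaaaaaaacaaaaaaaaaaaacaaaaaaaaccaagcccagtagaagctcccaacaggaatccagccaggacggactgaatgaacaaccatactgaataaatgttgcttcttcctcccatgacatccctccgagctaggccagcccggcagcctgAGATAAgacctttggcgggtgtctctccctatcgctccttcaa
Rhag: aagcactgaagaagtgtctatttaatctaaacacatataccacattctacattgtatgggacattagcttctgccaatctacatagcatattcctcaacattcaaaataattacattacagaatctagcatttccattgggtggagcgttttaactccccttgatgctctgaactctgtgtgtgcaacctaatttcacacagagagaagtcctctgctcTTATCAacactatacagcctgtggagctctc
Ermap: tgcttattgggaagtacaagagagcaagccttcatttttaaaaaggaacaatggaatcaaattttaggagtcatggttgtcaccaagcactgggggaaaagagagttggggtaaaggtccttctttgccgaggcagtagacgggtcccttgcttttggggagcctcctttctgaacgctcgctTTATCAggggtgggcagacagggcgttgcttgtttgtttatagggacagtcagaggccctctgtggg
A match began at base -43 in *Rhd*, -31 in *Rhag*, and -67 in *Ermap*, counted back from the RefSeq start, and *Epb42* had one at -226. The RefSeq starts of *Rhag*, *Ermap*, and *Epb42* lie inside the GENCODE spans given above, so their windows overlap those spans. The 6 genes had 8 windows, 3 of them of *Epb41*. These letters were found in 4 of the 8 windows and in 16.6% of all 32851 promoter windows of this length. The letters CCNCNCCC of a CACCC box, also read on both strands, were found in 3 of the 8 windows, 1 of *Sptb* and 2 of *Epb41*, and in 45.9% of all windows. The windows are sequence of the reference build, and no NZB or NZW sequence was read, so they do not bear on the strain difference. A match describes the letters only.

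Erythroid-like cells were named from markers such as *Car1*, *Car2*, *Alas2*, *Klf1*, and the globins. The class was divided by the share of UMIs (unique molecular identifiers, 1 per captured RNA molecule) that came from *Hba-a1*, *Hba-a2*, *Hbb-bs*, and *Hbb-bt*. Cells under 1% were called early (1356 cells) and the rest late (641 cells), and 340 cells lay between 0.5% and 2%. The limit first chosen was 10%. It left 85 late cells, with at least 10 of them in only 3 of the 9 mice, so 1% was set after the globin shares were seen, and values at 10% stand beside the members' calls that it changed. Red cells had been lysed before the libraries were made, and cells under 1000 UMIs or 500 genes were dropped. The highest globin share was 47.5%. The part of lysis and of these filters in that value was not tested.

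The 9 libraries held 2455 to 5684 kept barcodes and 8106539 to 18663189 UMIs, and their 39051 barcodes had 38879 distinct sequences. NZBWF1 replicate 1 gave the fewest erythroid-like cells, 37 early and 21 late. Early cells had a median of 10683.5 UMIs and late cells 6459. The early stage genes *Kit*, *Myb*, and *Myc* were lower in late cells (3 of 3 tested), and all 7 late stage genes, among them *Alas2* of heme synthesis and *Slc25a37* of mitochondrial iron import, were higher. Each p-value between strains measures the spread between mice of a strain, pooled over all 3 strains. That of NZB against NZW therefore also carries the spread of NZBWF1. Each p-value between gates measures the spread of the difference within a mouse. The summed levels of a class or gate alone do not tell fewer expressing cells from less RNA per cell. The share of cells with at least 1 UMI, given for some members, depends on depth as well.

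All 8 members were higher in late than in early erythroid-like cells. The rise was 5.46 on the log2 scale for *Slc4a1* (SE 0.143) and 2.93 for *Epb42* (SE 0.122), and it was smallest for *Epb41* and *Ermap*. The late and early sums of each mouse were compared in edgeR's quasi-likelihood test with the mouse as a block and Benjamini-Hochberg adjustment over 6757 genes. Of these genes 30.4% were called higher in late cells, against 8 of 8 members, 31% were called lower, and 61.4% were called in either direction. Markers of other cells were called higher in late cells as well, *Ltf* (1.30) and *Ngp* (1.29) of 6 neutrophil genes and *Gp9* (2.35), the only 1 of 4 megakaryocyte genes tested, and their part in the members' values was not tested. All 8 members were also called with the limit at 10%, in the 3 NZW mice.

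*Slc4a1* encodes band 3, the anion exchanger. Its level in early cells lay between 2.16 and 28.7 CPM (UMIs of the gene per 1000000 UMIs of the gate) in the 9 mice, with a median of 18.5, and in late cells between 531 and 797 CPM, with a median of 713. The ranges lay far apart (edgeR adjusted p = 1.28e-11). At least 1 UMI of *Slc4a1* was seen in 9.96% of early and 94.4% of late cells, against 0.174% of B cell-like cells, which had a median of 1667 UMIs. With the limit at 10% the rise was 3.38.

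*Epb42* encodes protein 4.2, which ties band 3 to ankyrin. It rose from 18.8 ± 6.28 CPM to 117 ± 25.8 CPM (mean ± SD, n = 9 mice; edgeR adjusted p = 5.61e-45), with no overlap between the gates. *Ank1*, the ankyrin that links band 3 to spectrin, rose by 1.25 (SE 0.0712), from 115 ± 18.1 CPM to 245 ± 69.3 CPM, and *Sptb*, beta spectrin, by 1.91 (SE 0.0645), from 133 ± 38.0 CPM to 436 ± 65.1 CPM. Neither overlapped between the gates.

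*Epb41*, protein 4.1, rose by 0.86 (SE 0.0857), from 79.4 ± 16.4 CPM to 128 ± 19.0 CPM, with overlapping ranges. *Rhag*, the Rh-associated glycoprotein, rose by 1.23 (SE 0.0633) and *Rhd*, the Rh blood group protein, by 1.29 (SE 0.0554). *Ermap*, an erythroblast surface protein with an immunoglobulin domain, rose by 0.49 (SE 0.0532, edgeR adjusted p = 7.38e-15) and was higher in late cells in 8 of the 9 mice, all but NZB replicate 1. *Ermap* was already at 389 ± 59.1 CPM in early cells, with a UMI in 93.7% of them and in 92.0% of late cells. For *Epb41* these shares were 55.1% and 53.8%.

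**Figure D1:**
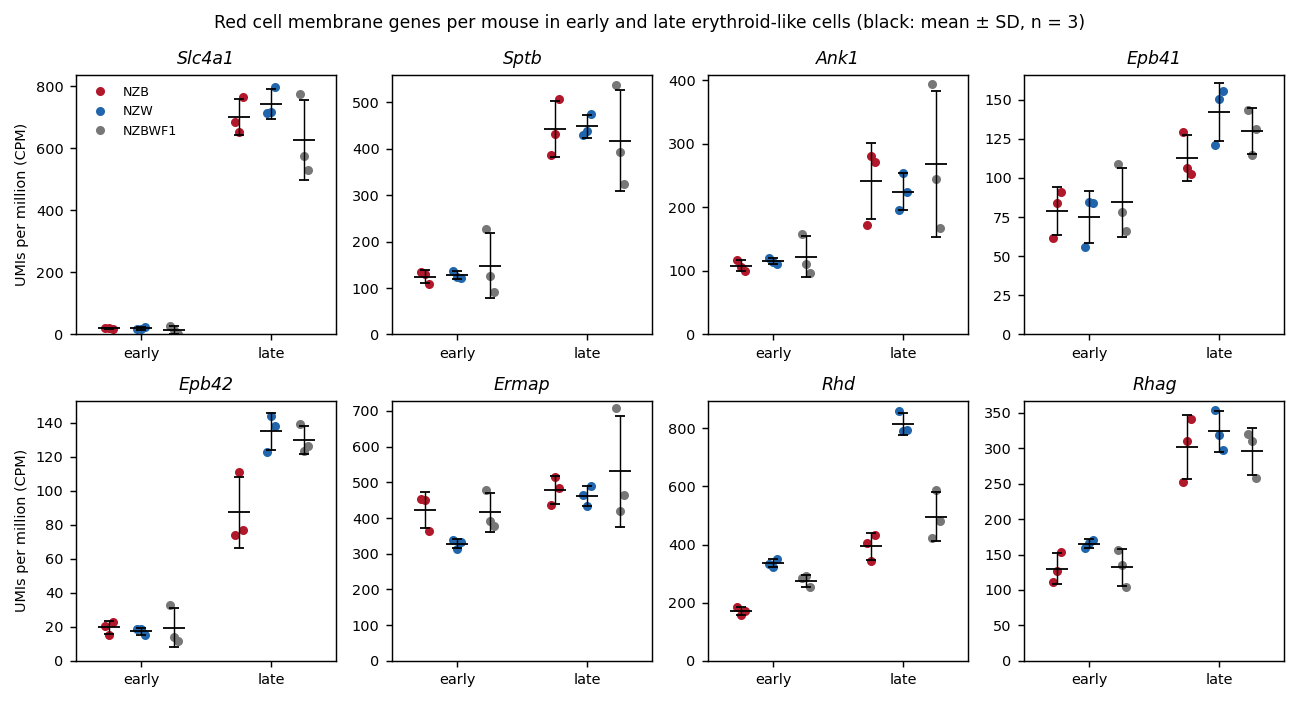
Each panel plots 1 gene, with the CPM of a mouse on the y axis and the early and late gates on the x axis. Points are mice colored by strain and black marks are the mean ± SD of 3 mice. The strain means are higher in the late gate, and NZB lies below NZW for *Rhd* in both gates.

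The course of each member was then described over 4 bins of globin share, using mice with at least 10 cells in a bin. In cells under 0.1% globin (973 cells, 9 mice) *Slc4a1* was at 1.49 ± 1.95 CPM. It stood at 64.8 CPM between 0.1% and 1%, at 504 CPM between 1% and 5%, and at 1276 ± 239 CPM in cells with 5% or more (188 cells, 6 mice). *Kit*, the stem cell factor receptor of early precursors, fell over the same bins from 92.1 CPM to 0 UMIs.

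*Epb42* was at 10.1, 42.3, 92.3, and 203 CPM over these bins. *Sptb* was at 94.1, 243, 369.8, and 654 CPM and *Ank1* at 90.8, 182, 217, and 347 CPM, so that both were well above 0 in cells almost without globin. *Rhd* was at 213, 395, 493, and 880.3 CPM and *Rhag* at 121, 202, 286, and 351 CPM. *Epb41* was at 73.6, 92.8, 114, and 158 CPM and *Ermap* at 372, 439, 462, and 536 CPM, the flattest courses of the 8. Each member had a higher mean in each successive bin, and 139 of the 188 cells in the highest bin came from NZW mice.

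**Figure D2:**
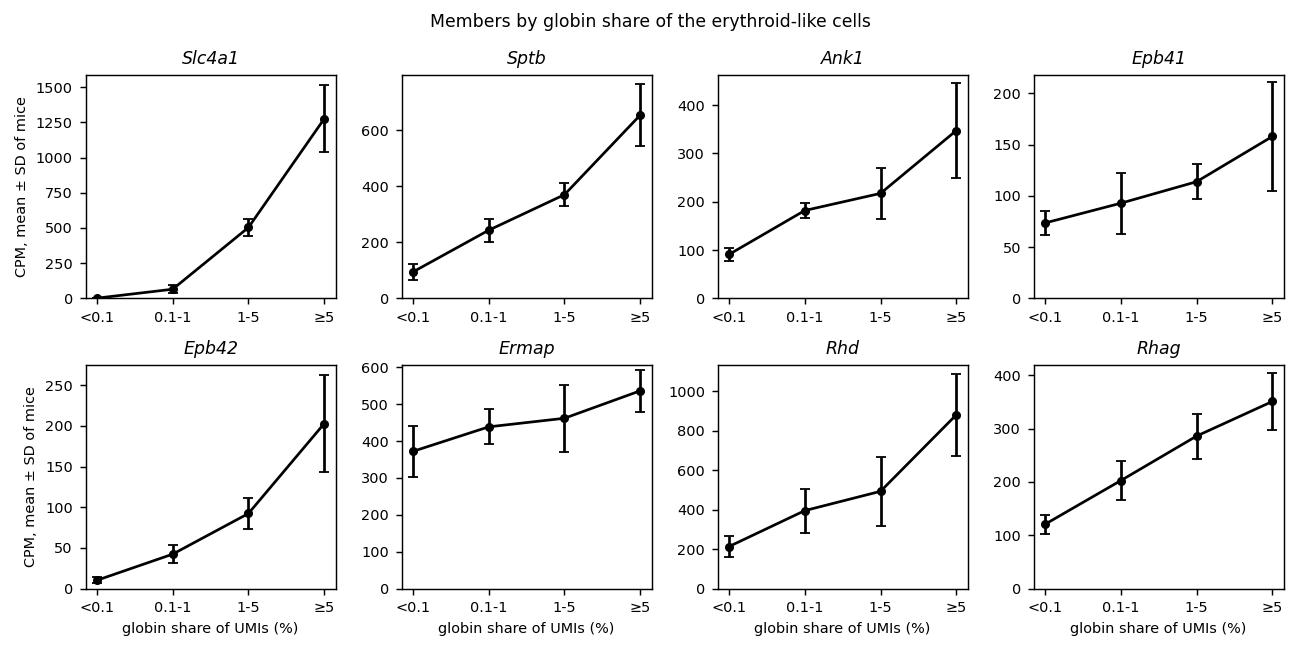
Mean CPM ± SD over mice (y axis) of each member in 4 bins of the globin share of a cell (x axis, percent of UMIs), with 9 mice in each of the lower bins and 6 in the highest. *Slc4a1* starts at 1.49 CPM and reaches 1276 CPM, while *Ermap* starts at 372 CPM.

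Other genes of the red cell membrane moved with stage as well. Of the 12 membrane skeleton genes, all tested, 8 were higher in late cells and 2 were lower. *Dmtn*, dematin, rose by 2.86 and *Tmod1*, which caps actin, by 4.06, whereas *Actg1*, gamma actin, and *Tpm3*, a tropomyosin, changed by -1.46 and -0.31. Of 17 surface proteins 16 were tested, 13 were higher, and 2 were lower. Among them *Tfrc*, the transferrin receptor, rose by 1.55 and *Ackr1*, the Duffy antigen, by 4.17. Of 12 transporters 11 were tested and 9 were higher. All 7 erythroid transcription factors were higher, *Klf1* by 0.64 and *Nfe2* by 1.30. The medians of the lists were 0.76, 1.23, 0.65, and 0.64 on the log2 scale, beside -0.01 over all genes, of which 30.4% were called higher and 31% lower.

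*Rhd* differed between the parents in both gates. In early cells the NZB mice were at 187, 157, and 172 CPM, the NZW mice at 333, 324, and 351 CPM, and the NZBWF1 mice at 285, 290.4, and 252 CPM. The 3 strains did not overlap, with NZB lowest and NZW highest. The log2 fold change of NZB against NZW was -0.94 (SE 0.0934, adjusted p = 1.65e-09, edgeR's quasi-likelihood test with Benjamini-Hochberg adjustment). In late cells the NZB mice were at 406, 343, and 434 CPM, the NZW mice at 859.8, 790.2, and 795 CPM, and the NZBWF1 mice at 421, 587, and 480.2 CPM. NZB and NZW did not overlap, and NZBWF1 replicate 1 lay inside the NZB range (NZB against NZW -1.04, SE 0.127, edgeR adjusted p = 2.13e-09).

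Between NZB and NZW 2 of 8 members were called in early cells, *Rhd* and *Ermap*, beside 7.01% of 8448 genes, and 1 of 8 in late cells, *Rhd*, beside 4.51% of 4895 genes. *Rhd* was called in each of the 21 settings of the early gate and the 18 of the late gate, and with the limit at 10% the early value was -1.19. The difference between NZB and NZW was compared between the gates, and 0 of 8 members were called beside 0.0888% of 6757 genes. In edgeR 3 members were past an unadjusted p of 0.05, beside 455 of the 6757 genes. For *Rhd* the change of that difference between the gates was -0.11 (SE 0.124, edgeR adjusted p = 0.948).

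The same cells were then divided into the 4 bins of globin share, and *Rhd* was lower in NZB in each bin. The highest bin reached a share of 47.5%, and stage within a bin was not matched between the strains. Under 0.1% globin the NZB mice lay at 139 to 158 CPM and the NZW mice at 244 to 281 CPM. Between 0.1% and 1% they lay at 237 to 287 CPM and 482 to 517 CPM, and between 1% and 5% at 293 to 383 CPM and 664 to 759 CPM. With 5% or more the 2 NZB mice with enough cells were at 669 and 674 CPM and the NZW mice at 1064 to 1076 CPM. The parents did not overlap in any of the 4 bins.

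**Figure D3:**
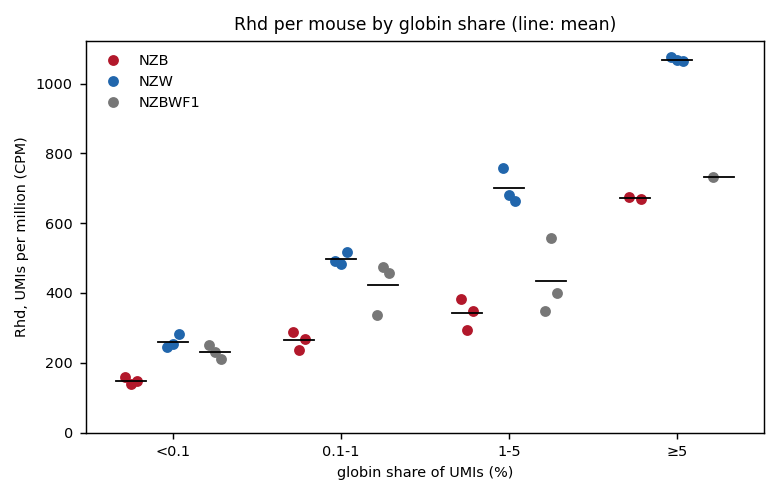
*Rhd* in CPM (y axis) by globin share of the cell (x axis, percent of UMIs), with a point per mouse colored by strain and a line at the strain mean, for mice with at least 10 cells in the bin. NZB lies below NZW in each bin, and the highest bin holds 2 NZB, 3 NZW, and 1 NZBWF1 mice.

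The cross lay between its parents in mean *Rhd* level. Against NZB it was higher by 0.66 in early cells (SE 0.0964, edgeR adjusted p = 3.84e-05; 1.56% of genes called), and its late value of 0.34 did not pass (edgeR adjusted p = 0.357; 0.695% called). Against NZW it was at -0.28 in early cells, which did not pass (edgeR adjusted p = 0.144; 1.24% called), and at -0.70 in late cells (SE 0.123, edgeR adjusted p = 8.94e-05; 1.1% called). With a limit of 10% the early value against NZW was -0.57 and was called (edgeR adjusted p = 0.00160), as it was with limits of 5% and 20%, alpha globin of at least 4%, and alpha globin of at least 0.25%, so in 5 of 21 settings. With a limit of 5% the late gate held 2 NZB mice, 3 NZW mice, and 1 NZBWF1 mouse with at least 10 cells, so its values for the cross rest on 1 mouse with 18 late cells and are not set against those of 3 mice. The distance of *Rhd* in NZBWF1 from the mean of the parents changed between gates by -0.39 (SE 0.111), which did not pass (edgeR adjusted p = 0.383; 0 of 8 members called beside 0.0148% of genes). In that comparison 2 members were past an unadjusted p of 0.05 in edgeR, beside 362 of 6757 genes.

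*Ermap* was higher in NZB in early cells. The NZB mice were at 453, 449.9, and 365 CPM, the NZW mice at 338, 313, and 334 CPM, and the NZBWF1 mice at 478, 390.3, and 379 CPM. NZB and NZW did not overlap (log2 fold change 0.41, SE 0.0976, edgeR adjusted p = 0.00532). In late cells the value was 0.075 (edgeR adjusted p = 0.841), and the change between gates of -0.33 did not pass (edgeR adjusted p = 0.462). The early call of *Ermap* was lost without NZB replicate 2 (adjusted p = 0.0758), without NZW replicate 2 (adjusted p = 0.0720), and with a limit of 10% (0.27, adjusted p = 0.139), all in edgeR. It was also lost with limits of 5% and 20% and with alpha globin of at least 4%, so in 6 of 21 settings.

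*Epb42* and *Rhag* were called when early and late cells were summed. Over the class *Epb42* was at 28.1, 30.6, and 30.9 CPM in NZB, 54.2, 56.2, and 51.4 CPM in NZW, and 63.6, 37.3, and 22.4 CPM in NZBWF1. The parents did not overlap and the cross spanned both (NZB against NZW -0.83, SE 0.195, edgeR adjusted p = 0.00887). Within the gates *Epb42* was at 0.20 in early cells (edgeR adjusted p = 0.755) and -0.58 in late cells (edgeR adjusted p = 0.0553). The late value was called in 6 of 18 other settings, which were no filter, free RNA subtracted, alpha globin of at least 0.25%, and the removal of NZB replicate 2, NZW replicate 1, or NZBWF1 replicate 1 (edgeR adjusted p of 0.00446 at the lowest). *Rhag* was at 131, 156, and 181 CPM in NZB and 226, 212, and 208 CPM in NZW over the class (-0.44, SE 0.128, edgeR adjusted p = 0.0372). The NZBWF1 mice lay at 119 to 204 CPM for *Rhag*. Within the gates its values were -0.29 and -0.059, neither called. The early value was called in 4 of 21 other settings, which were limits of 10% and 20%, alpha globin of at least 0.25%, and the removal of NZB replicate 3 (edgeR adjusted p of 0.0314 at the lowest).

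Over the class 3 of 8 members were called, *Rhd* (-1.24), *Epb42*, and *Rhag*, beside 8.5% of 8644 genes. The call of *Epb42* was lost without NZB replicate 2, NZB replicate 3, or NZW replicate 2 (edgeR adjusted p of 0.0540 to 0.0607). That of *Rhag* was lost without NZB replicate 1 or 2, any NZW mouse, or NZBWF1 replicate 2 (edgeR adjusted p of 0.0551 to 0.164) and in DESeq2 (adjusted p = 0.0536). *Slc4a1* lay at 116 to 127 CPM in NZB, 227 to 256 CPM in NZW, and 53.1 to 246 CPM in NZBWF1. It was not called between the parents (-0.99, SE 0.416, edgeR adjusted p = 0.25), except without NZBWF1 replicate 3 (edgeR adjusted p = 0.000361). Within early and late cells *Slc4a1* was at -0.029 and -0.072. Over the 21 other settings of the early gate its value ran from -1.51 to 0.18 and was called in none. With 1 mouse left out it ran from -0.20 to 0.18, so the lowest value came from another kind of setting. With the limit at 10%, where the early gate holds 1912 of the 1997 cells, *Epb42* (-0.74, adjusted p = 0.0104) and *Rhag* (-0.40, adjusted p = 0.0472) were called in edgeR beside *Rhd*.

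The mix of stages differed between the strains. Late cells made up 21.4%, 23.5%, and 23.1% of erythroid-like cells in NZB, 46.7%, 42.7%, and 43.8% in NZW, and 36.2%, 29.1%, and 16.2% in NZBWF1. NZB and NZW did not overlap. The 3 strains were compared together by an F statistic in an exact permutation test over the 280 partitions of the 9 mice (p = 0.0179, where the smallest possible is 0.00357), and the difference of NZB and NZW alone was not tested. NZB minus NZW was -21.7 points, against -12.5 points with a limit of 5% and -4.86 points with 10%. The p at 1% was 0.0536 when NZW replicate 1, 2, or 3 was left out. The exact permutation p was 0.05 or more in 6 of 17 settings, the others being alpha globin of at least 0.25% (p = 0.0857 with NZB minus NZW at -14.4 points), a limit of 20% (p = 0.0643 with -1.55 points), and the replicate block (p = 0.0833). Within the early gate all 4 early stage genes tested were higher in NZB, *Myc* by 0.83, *Myb* by 0.42, *Kit* by 0.50, and *Gata2* by 0.96, and 1 of 7 late stage genes, *Trim10*, was lower (-0.96). The calls of *Myc* and *Trim10* held in all 21 settings. *Kit* was lost in DESeq2 and without NZB replicate 2 or NZW replicate 3 (edgeR adjusted p up to 0.248), *Myb* in DESeq2 and without NZB replicate 2 or NZW replicate 2 or 3 (edgeR adjusted p up to 0.107), and *Gata2* in 8 settings, including DESeq2 and the removal of NZB or NZW replicate 2 or 3 or NZBWF1 replicate 2 (edgeR adjusted p up to 0.366). The median globin share of the early cells was 0.0085% to 0.0103% in the NZB mice and 0.0164% to 0.0427% in the NZW mice. The part of the stage mix and of stage within a gate in the values of *Rhd*, *Ermap*, *Epb42*, and *Rhag* was not tested.

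**Figure D4:**
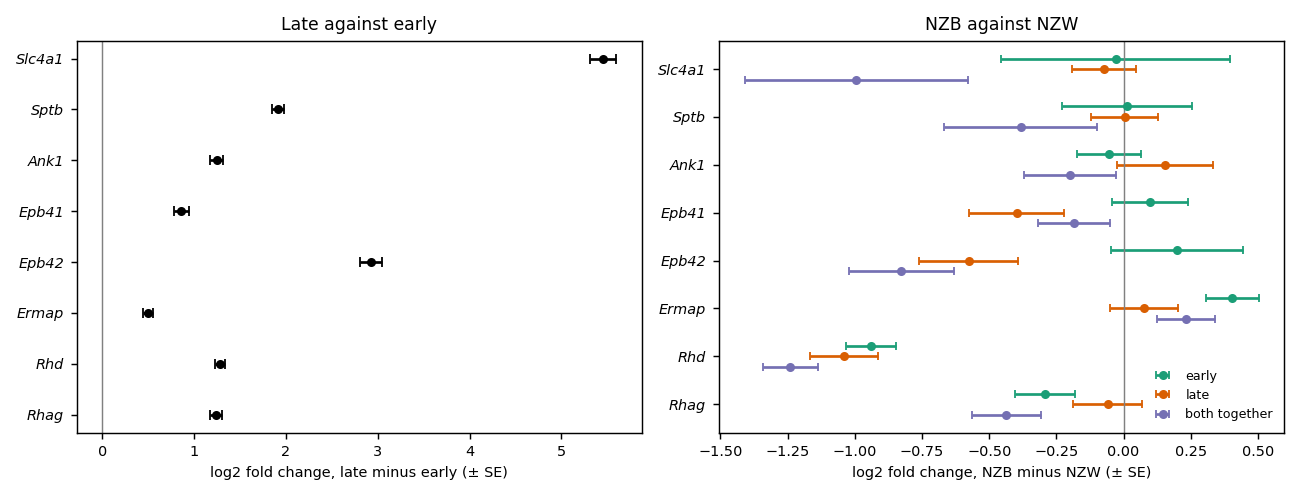
Log2 fold changes (x axis) with standard errors for the 8 members (y axis), late against early, and NZB against NZW in early cells, in late cells, and in both together. The late against early values lie above 0, from 0.49 to 5.46, and *Rhd* lies between -1.24 and -0.94 for NZB against NZW.

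*Sptb*, *Ank1*, and *Epb41* did not pass between the parents in either gate. Their log2 fold changes were 0.013 (SE 0.243), -0.055 (SE 0.120), and 0.10 (SE 0.141) in early cells and 0.0038 (SE 0.124), 0.15 (SE 0.178), and -0.40 (SE 0.177) in late cells. Between NZBWF1 and the mean of its parents 0 of 8 members were called in early cells, late cells, or the class, where edgeR called 0.379%, 0.143%, and 0.301% of genes. At an unadjusted p under 0.05 in edgeR there were 2, 1, and 0 members, beside 547 of 8448, 330 of 4895, and 602 of 8644 genes. DESeq2 called 0 members. NZBWF1 replicate 1 (37 early cells) was the highest of the 9 mice in early cells for 6 of 8 members, all but *Rhd* and *Rhag*, with *Sptb* at 228 CPM, *Ank1* at 159 CPM, and *Epb41* at 109 CPM. This mouse was also the lowest of the 9 for the summed neutrophil genes, at 134 CPM in early and 157 CPM in late cells. Without it 0 of 8 members were called between the cross and the parents' mean in either gate or the class in edgeR, and the same 2 members were called between the parents in early cells. Over the class *Sptb* was then called as well (-0.38, edgeR adjusted p = 0.0323). In early cells NZBWF1 replicate 3 was the lowest for *Slc4a1*, at 2.16 CPM.

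Markers of other cells were present in the erythroid gates. The summed level of 4 B cell genes in early cells was 12.2 to 20.3 CPM in NZB, 39.2 to 59.0 CPM in NZW, and 54.9 to 68.9 CPM in NZBWF1, and 3 of the 4 were called lower in NZB than in NZW. The 5 macrophage genes summed to 13.6 to 22.5 CPM, 4.12 to 5.89 CPM, and 22.7 to 31.8 CPM, and *Vcam1*, 1 of 3 tested, was higher in NZB (2.34). The 4 megakaryocyte genes summed to 5.13 to 11.5 CPM, 11.3 to 13.7 CPM, and 5.39 to 9.56 CPM. The 6 neutrophil genes summed to 1858 to 5466 CPM, 1707 to 4697 CPM, and 134 to 2241 CPM, and 0 of 6 passed between the parents in edgeR, adjusted or unadjusted. In late cells the B cell genes summed to 6.16 to 10.1 CPM, 23.8 to 64.9 CPM, and 80.9 to 144 CPM in the same order, and the macrophage genes to 35.1 to 50.5 CPM, 6.47 to 13.3 CPM, and 13.9 to 65.7 CPM. NZB and NZW did not overlap for either list in late cells. The megakaryocyte genes summed there to 22.7 to 35.1 CPM, 27.0 to 45.6 CPM, and 45.8 to 60.7 CPM, and the neutrophil genes to 757 to 11925 CPM, 1819 to 10157 CPM, and 157 to 13896 CPM. Their part in the values of *Rhd* and the other members was not tested.

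Among related membrane genes, those that differed between the parents in early cells were lower in NZB. Most genes of these lists were higher in late than in early cells, and early cells of NZB had a lower median globin share than those of NZW. The part of stage within a gate in the values below was not tested. Of 11 skeleton genes tested 4 were lower and 0 higher, with *Add1*, alpha adducin, at -0.79 (SE 0.126), the tropomyosins *Tpm3* and *Tpm1* at -0.71 and -0.59, and *Add2*, beta adducin, at -0.47. Of 15 surface proteins 2 were lower and 0 higher, with *Art4*, the Dombrock antigen, at -0.85. Of 11 transporters 3 were lower, led by *Slc29a1*, a nucleoside transporter, at -1.75 (SE 0.127). Over all genes 3.72% were called lower and 3.29% higher. The medians of the skeleton, surface, and transporter lists were -0.15, -0.069, and -0.28, beside 0.0046 over all genes. Of 7 erythroid factors *Gata1* was lower (-0.35, edgeR adjusted p = 0.0456), a call lost in 11 of 21 other settings, among them DESeq2, a limit of 10%, and the removal of any parent mouse or NZBWF1 replicate 2 (edgeR adjusted p up to 0.267). In late cells 3 of 10 skeleton genes and 1 of 8 transporters tested were lower and 0 higher, as was 1 of 14 surface proteins with 0 higher, beside 2.41% and 2.1% of all genes. The skeleton genes and the transporter were *Add1* (-0.84), *Tpm1* (-0.84), *Dmtn* (-0.54), and *Slc29a1* (-1.89). The late call of *Slc29a1* held in all 18 settings and that of *Add1* was lost with a limit of 5%, with 2 NZB mice (-0.37, edgeR adjusted p = 0.767). *Tpm1* was lost in 4 settings, which were that limit, DESeq2, and the removal of NZB replicate 2 or 3, and *Dmtn* in 9, including that limit, DESeq2, and the removal of NZB or NZW replicate 2 or 3. The early calls of *Add1*, *Slc29a1*, and *Tpm3* held in every setting, *Tpm1* was lost without NZW replicate 3, and *Add2* without NZB replicate 2 or NZW replicate 3. The other early calls were less firm. *Art4* was lost in 11 of 21 settings, including DESeq2 and the removal of any mouse but NZBWF1 replicate 1 (edgeR adjusted p up to 0.199). *Abcb6* was lost in 7, including DESeq2 and the removal of NZB replicate 2 or 3, any NZW mouse, or NZBWF1 replicate 2 (edgeR adjusted p up to 0.275). *Kcnn4* was lost in 4, which were DESeq2 and the removal of NZB replicate 3 or NZW replicate 1 or 2 (edgeR adjusted p up to 0.195).

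Outside the erythroid-like class *Epb41* stood apart from the other 7 members. It was found in all 12 other named classes, from 7.04 CPM in plasma cell-like to 118 ± 79.0 CPM in megakaryocyte-like cells. Another 3233 cells were left unnamed and are in none of these classes. In the 10 classes other than macrophage-like and megakaryocyte-like cells the other 7 members had 323 UMIs in all, where the free RNA of near-empty barcodes would give 223. The highest mean among them was 5.85 CPM, for *Slc4a1* in NK cell-like cells, from 6 UMIs.

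Megakaryocyte-like cells, in the 8 mice with at least 10 of them, carried *Ermap* at 50.4 ± 36.3 CPM from 64 UMIs, where free RNA would give 0.592. *Rhag* was at 22.8 CPM, *Sptb* at 19.8 CPM, and *Rhd* at 14.0 CPM, and the 7 UMIs of *Slc4a1* came from 1 cell. UMIs of all 8 members were found in macrophage-like cells (434 cells), in 15.2% of them for *Epb41* and in 1.61% to 4.84% for the other 7. Levels varied between mice, with *Ank1* at 29.5 ± 45.3 CPM. After the macrophage markers, the erythroid markers were the most raised in this cluster (mean log2 fold of the top 3 markers 1.70, against 6.07). Their part in these values was not tested. *Slc4a1* was at 51.0 ± 35.7 CPM there, from 52 UMIs in 4.84% of cells, where free RNA would give 0.542 UMIs, and it was seen in all 9 mice at 11.6 to 121 CPM.

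**Figure D5:**
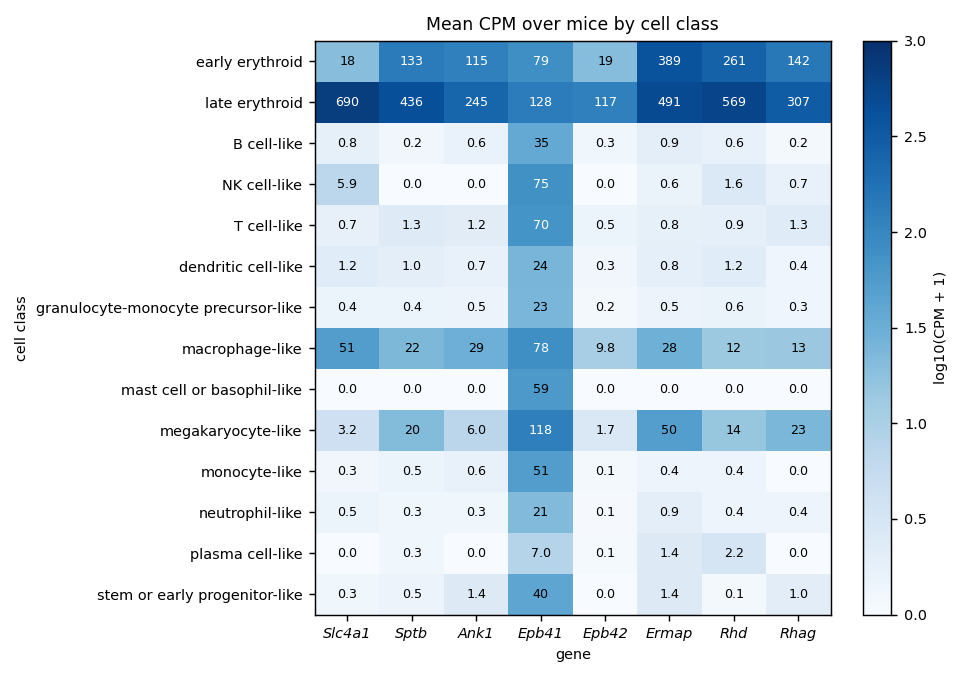
Mean CPM over mice, printed in each cell and colored on a log10(CPM + 1) scale, for the 8 members (x axis) in early and late erythroid-like cells and 12 other classes (y axis). *Epb41* is at 7.04 CPM or more in each class, and all 8 genes have their highest means in late erythroid-like cells.

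*Epb41* had enough counts for a test between the parents in 10 of the other classes. In monocyte-like cells it was at 66.7, 55.7, and 63.3 CPM in NZB, 37.6, 36.2, and 41.6 CPM in NZW, and 54.0, 45.4, and 57.5 CPM in NZBWF1. NZB lay above NZW in every mouse (0.68, SE 0.155, edgeR adjusted p = 0.00173), where 23.2% of genes were called. In neutrophil-like cells *Epb41* was at 19.6 to 22.1 CPM in NZB and 14.4 to 16.4 CPM in NZW (0.65, SE 0.191, edgeR adjusted p = 0.0166; 22.2% called), a call lost without NZW replicate 2 or 3 and in DESeq2. The highest of the 9 mice there, at 31.6 CPM, was an NZBWF1 mouse and lay above both parents.

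In megakaryocyte-like cells *Epb41* was at 110.3 to 279 CPM in NZB and 42.3 to 62.8 CPM in NZW without overlap, and the log2 fold change of 1.74 did not pass (SE 0.442, edgeR adjusted p = 0.0503; 1.32% called). It was called in 7 of 14 other settings, which were no filter, doublets kept, free RNA subtracted, and the removal of NZB replicate 1 or 3 or NZBWF1 replicate 2 or 3 (edgeR adjusted p of 0.000422 at the lowest). In B cell-like, NK cell-like, T cell-like, dendritic cell-like, granulocyte-monocyte precursor-like, macrophage-like, and stem or early progenitor-like cells *Epb41* was not called, with log2 fold changes of -0.47 to 0.39, where 2.73%, 2.64%, 2.28%, 11.4%, 11.7%, 1.14%, and 3.5% of genes were, in that order. *Ermap* was the only other member tested between the parents outside the erythroid-like class after the default filter. In megakaryocyte-like cells it was at 14.2 to 33.9 CPM in NZB and 42.3 to 119 CPM in NZW without overlap, and did not pass (-1.95, SE 0.679, edgeR adjusted p = 0.186). It was called in 1 of 14 other settings, with no filter (edgeR adjusted p = 0.0446). Whether the strain difference of *Epb41* itself differed between classes was not tested.

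The genes most like each member were sought by Pearson correlation of log2(CPM + 10) over 124 sums of a mouse and a class or gate, among 10914 genes. These sums share libraries and the split between erythroid-like and other cells, so the values describe that split. *Slc4a1* was nearest *Hba-a2* (0.97) and *Alas2* (0.94), *Sptb* had *Aldh1a1* and *Ank1* among its 3 nearest (both 0.96), and *Ank1* had *Cldn13* (0.97). *Rhd* was nearest *Slc38a5*, an amino acid transporter (0.98), and *Ermap* and *Rhag* were nearest each other (0.97). *Epb42* was nearest *Fhdc1* (0.96), and *Epb41* had the lowest leading value, with *Herc1* (0.71).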

How the data were processed

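Bone marrow cells of each mouse were profiled with a 10x 3' kit. The authors made the deposited counts (UMIs per gene and cell, not normalized) with bcl2fastq 2.20 and Cell Ranger 3.1.0 against mm10 and merged the 9 libraries, and no source read for this work states whether that merge equalized sequencing depth. The number at the end of a barcode was read as the place of its mouse in the merge list, the Cell Ranger convention.

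Barcodes under 1000 UMIs, under 500 genes, or above 10% mitochondrial UMIs were dropped, which left 39051, and 1458 predicted doublets were removed at 0.8% per 1000 cells. Cells were clustered in scanpy 1.11.5 from 2788 variable genes, 30 principal components, and 15 neighbors with Leiden resolution 2 (46 clusters), without the 8 members, and named from marker genes. Clusters led by markers or leading genes of another class were left unnamed (3233 cells). The rule on leading genes was added after the clusters were seen. Raw counts were summed per mouse and class or gate (at least 10 cells) and tested in edgeR 4.0.16 (R 4.3.3) with TMM factors and the default filter on low counts, with all 3 strains in 1 fit. DESeq2 1.42.0, no filter, other globin limits, alpha globin alone, doublets kept, 250 genes, free RNA subtracted, globin genes left out, a replicate block, and each mouse left out were tried. The planned limit of 10% globin was replaced by 1% after the globin shares were seen. Named genes were the members and, per list, up to 4 called genes of smallest p, and the few others in a small count were named after their values were seen. The members and lists were chosen with earlier results of these data known. On simulated data with 200 genes changed 2-fold, 157 were recovered for NZB against NZW in early cells (8448 genes) and 141 in late cells (4895 genes). A count from 3' ends does not compare levels between genes. Some items are not reported here.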

Additional observations from a re-analysis of the deposited data

How the results depend on the processing

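Fold changes of the members and of list examples were recomputed under other settings, without the differences between gates, *Vcam1*, *Ltf*, *Ngp*, *Gp9*, *Tpm3* between gates, and *Epb41* in classes other than the erythroid-, monocyte-, neutrophil-, and megakaryocyte-like. Those for single genes kept their direction and their side of the threshold in 2117 cases, lost the call in 118, gained it in 25, and turned direction in 71. No value that turned was called as reported, and *Epb42* in early cells turned from 0.20 to called negative values with limits of 10% and 20% and alpha globin of at least 4%. *Rhd* was called between NZB and NZW in every setting of the early gate, the late gate, and the class. The cause of each change was not tested. In DESeq2 the estimates that moved or turned were, for early NZBWF1 against the parents' mean *Epb41* at 0.020, for late NZB against NZW *Sptb* at -0.00039, and for other classes, NZB against NZW 1 member called. With no filter beyond 1 count the estimates that moved or turned were, for late NZB against NZW 2 members called, *Sptb* at -0.043, and for other classes, NZB against NZW 4 members called. With a globin limit of 5% the estimates that moved or turned were, for early NZB against NZW 1 member called, *Sptb* at -0.22, *Epb41* at -0.014, *Epb42* at -0.40, for early NZBWF1 against the parents' mean *Sptb* at -0.014, for late NZB against NZW *Slc4a1* at 0.072, *Ermap* at -0.058, and for late NZBWF1 (1 mouse) against the parents' mean *Ank1* at -0.088, *Epb41* at 0.33, *Epb42* at -0.61, *Ermap* at -0.19. With a globin limit of 10% the estimates that moved or turned were, for early NZB against NZW *Sptb* at -0.32, *Epb41* at -0.10, *Epb42* at -0.74, and for early NZBWF1 against the parents' mean *Sptb* at -0.057. With a globin limit of 20% the estimates that moved or turned were, for early NZB against NZW *Sptb* at -0.36, *Epb41* at -0.16, *Epb42* at -0.79, for early NZBWF1 against the parents' mean *Sptb* at -0.070, *Rhd* at -0.017, and for the late share, NZB minus NZW a difference of -1.55 points (3-strain exact permutation p = 0.0643). With late cells defined by alpha globin of at least 4% the estimates that moved or turned were, for early NZB against NZW *Sptb* at -0.35, *Epb41* at -0.14, *Epb42* at -0.77, and for early NZBWF1 against the parents' mean *Sptb* at -0.057, *Rhd* at -0.0088. With late cells defined by alpha globin of at least 0.25% the estimates that moved or turned were, for early NZB against NZW *Sptb* at -0.19, *Epb42* at -0.20, for late NZB against NZW 2 members called, *Sptb* at -0.15, and for the late share, NZB minus NZW a difference of -14.4 points (3-strain exact permutation p = 0.0857). With doublets kept the estimates that moved or turned were, for early NZB against NZW *Sptb* at -0.024, for early NZBWF1 against the parents' mean *Epb41* at 0.00041, and for late NZB against NZW *Sptb* at -0.0046. With cells of at least 250 genes the estimates that moved or turned were, for late NZBWF1 against the parents' mean *Epb41* at 0.12. With free RNA subtracted the estimates that moved or turned were, for late NZB against NZW 2 members called, *Sptb* at -0.0050. With globin genes left out the estimates that moved or turned were, for late NZB against NZW *Sptb* at -7.1e-05. With 1 mouse left out at a time the ranges were, for early NZB against NZW *Sptb* at -0.049 to 0.13, 1 to 3 members called, *Slc4a1* at -0.20 to 0.18, *Ank1* at -0.12 to 0.019, *Epb41* at -0.0049 to 0.20, for late NZB against NZW *Rhag* at -0.16 to 0.0015, 1 to 2 members called, *Slc4a1* at -0.15 to 0.0010, *Sptb* at -0.11 to 0.051, for late NZBWF1 against the parents' mean *Epb41* at -0.067 to 0.10, *Ank1* at -0.13 to 0.28, *Ermap* at -0.10 to 0.28, for class NZBWF1 against the parents' mean *Rhd* at -0.13 to 0.066, *Ank1* at -0.18 to 0.26, *Ermap* at -0.026 to 0.16, *Sptb* at -0.40 to 0.20, *Epb41* at -0.20 to 0.038, *Epb42* at -0.40 to 0.11, for class NZB against NZW 1 to 4 members called, for early NZBWF1 against the parents' mean *Sptb* at -0.18 to 0.30, *Ank1* at -0.072 to 0.15, *Epb41* at -0.12 to 0.091, for other classes, NZB against NZW 1 to 3 members called, and for the late share, NZB minus NZW a difference of -22.6 to -20.6 points (3-strain exact permutation p = 0.00357 to 0.0536).

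The counts over all genes that moved by more than 1.5 times were as follows. 592 for early NZB against NZW became 336 (DESeq2), 387 (without NZB replicate 2), 387 (without NZW replicate 2). 32 for early NZBWF1 against the parents' mean became 13 (DESeq2), 62 (no filter beyond 1 count), 14 (without NZBWF1 replicate 2), 19 (without NZBWF1 replicate 3). 221 for late NZB against NZW became 103 (DESeq2), 129 (without NZB replicate 2), 147 (without NZW replicate 3), 69 (globin limit of 5%). 735 for class NZB against NZW became 475 (DESeq2), 460 (without NZB replicate 2). 7 for late NZBWF1 against the parents' mean became 15 (no filter beyond 1 count), 11 (replicate block), 11 (without NZB replicate 1), 11 (without NZB replicate 3), 12 (without NZW replicate 2), 11 (without NZBWF1 replicate 1), 3 (without NZBWF1 replicate 2), 11 (without NZBWF1 replicate 3), 11 (globin limit of 5%, with 1 NZBWF1 mouse). 26 for class NZBWF1 against the parents' mean became 76 (no filter beyond 1 count), 15 (without NZB replicate 2), 48 (without NZBWF1 replicate 1), 8 (without NZBWF1 replicate 2). 4152 for late against early became 1735 (globin limit of 10%). The late gate could not be fitted by strain with a limit of 10% or 20% or with alpha globin of at least 4%, because too few mice had 10 late cells. With a limit of 5% it held 2 NZB mice, 3 NZW mice, and 1 NZBWF1 mouse (18 late cells), which is assumed to vary like the parents, so the late values and counts at 5% for the cross do not test a change of direction or of a call.

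With the replicate number as a block the late share difference of -21.7 points stood beside an exact permutation p over the 3 strains of 0.0833, and *Rhag* in the class was at -0.43 (edgeR adjusted p = 0.0662). With strain means subtracted, samples of the same number correlated by -0.133 to 0.110 in early and -0.176 to 0.163 in late cells. Samples of other numbers correlated by -0.0971 to 0.111 and -0.199 to 0.266. In each strain replicate 2 had the lowest globin share of free RNA, at 0.396% in NZB, 0.680% in NZW, and 0.429% in NZBWF1. Whether mice of the same number shared a run was not tested. With the block no other member's call changed between NZB and NZW.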
